A study of Mus musculus with 8 samples.

Results

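Dclk1, Trpm5, Pou2f3, Avil and Il17rb, 5 genes used as markers of intestinal tuft cells, were followed over 8 Affymetrix arrays of mouse colon and small intestine. All probe sets that the platform annotation assigns to exactly 1 of these genes were taken, which gave 15 of the 34945 probe sets with a single gene: 9 for Dclk1, 3 for Trpm5 and 1 each for Pou2f3, Avil and Il17rb. All mice were C57BL/6 and 110 days old. ACKR2KO_ApcMin mice lacked the chemokine-scavenging receptor ACKR2 (also called D6) and carried 1 mutated copy of the tumour suppressor Apc, ApcMin mice carried that Apc allele with ACKR2 intact, ACKR2KO mice lacked ACKR2 with wild-type Apc, and WT mice had neither change. Tumours were taken from both ApcMin genotypes, and non-tumour tissue from the ACKR2KO and WT mice, so tumour and normal tissue never came from the same animals. The labels name the ileum for the small-intestinal tumours and only small intestine for the non-tumour tissue. RNA was pooled within each genotype and tissue and put on 1 array, so every group had n = 1 and no replicates, and with so few arrays every value has limited precision.

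Tuft cells are rare chemosensory cells of the gut epithelium with a stiff bundle of microvilli at their tip. Their development depends on the transcription factor POU2F3. They sense luminal metabolites through a taste-like cascade that ends in the cation channel TRPM5, and they release IL-25, which acts on type 2 innate lymphoid cells. These cells in turn secrete IL-13, which expands the tuft cells. DCLK1 is the marker most often used to find tuft cells in the intestine and in its tumours.

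Values are linear MAS5 signals, the summary of a probe set's brightness, and each array had been scaled by the authors. Signals below a floor of 64.1 were set to it before log2 was taken, so a difference from a floored value is at least as large as the one given, and a pair with both values floored has none. Where a gene had several probe sets, the one with the highest mean was tested. Contrasts come from 1 limma model over 14023 genes, with Benjamini-Hochberg adjustment and a call at an adjusted p under 0.05. With no replicates, its standard errors rest on 2 residual degrees of freedom, that is, on the disagreement between colon and small intestine about the ACKR2 effect, and hold no estimate of the spread among animals. Of the 15 probe sets, 13 exceeded the floor in at least 2 arrays, and the tested probe set of each of the 5 genes was among them.

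Some features of the pools moved with the groups and touch every comparison below. Xist, which coats the inactive X chromosome, had signals of 77.9 and 127 in the ACKR2KO_ApcMin arrays and between 2818 and 9809 in the others. The Y-chromosome gene Eif2s3y was at least 888 in all arrays other than those of WT mice, where it was 2.92 and 2.66, so sex differed between the pools. The Actb 3'/5' signal ratio, a measure of RNA integrity, ran from 1.28 to 1.39 in the 4 arrays with ACKR2 loss and from 1.13 to 1.17 in the other 4. The same ratio for Gapdh did not separate them, with 0.740 to 0.866 with ACKR2 loss and 0.772 to 0.952 without it. Ackr2 itself had low signals of 71.3 to 153, and its genotypes overlapped. The part of sex and RNA integrity in the results was not tested.

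The 5 genes had different patterns over the arrays. Avil was the only one whose tumour arrays all lay above its non-tumour arrays, and the only one whose tested probe set was called in any contrast. Dclk1, Trpm5 and Il17rb had their highest signal in the array of ACKR2KO_ApcMin small-intestinal tumours, and Pou2f3 had its highest in ApcMin small-intestinal tumours. In bulk tissue, fewer tuft cells and less RNA per tuft cell cannot be told apart.

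**Figure D1:**
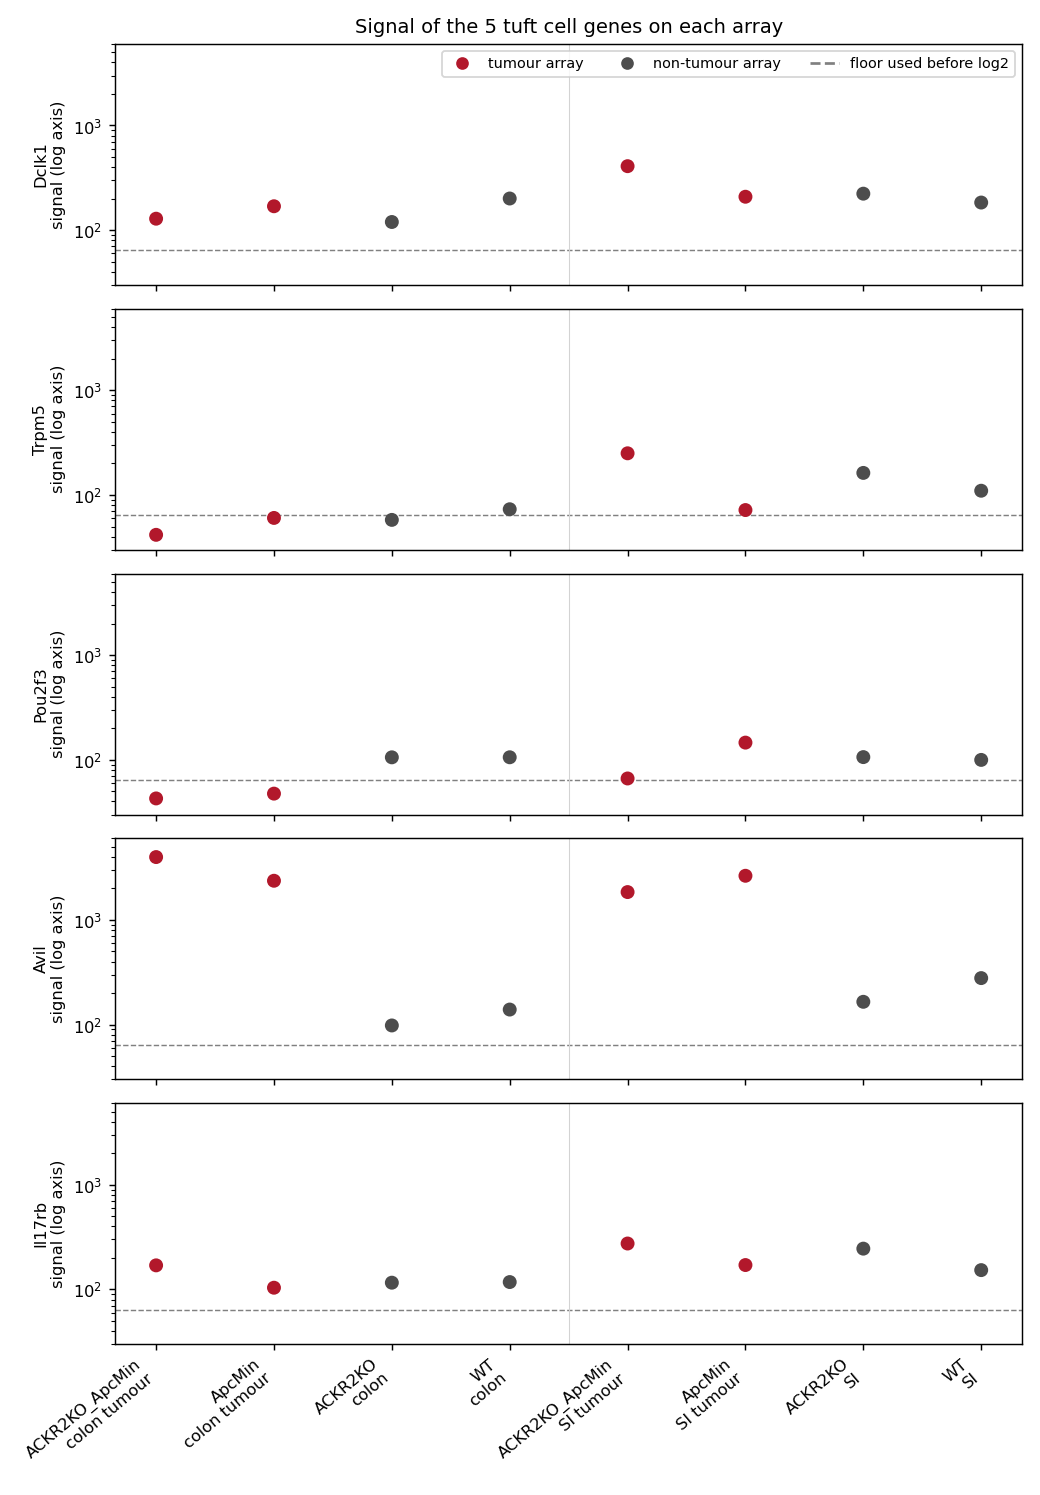
Signal of the tested probe set of each gene (log axis) on the 8 arrays, with 1 point per array, tumour arrays in red and non-tumour arrays in grey, and the floor of 64.1 as a dashed line. Avil sits between 1844 and 3982 in the tumour arrays and between 98.2 and 278 in the non-tumour arrays, whereas the other 4 genes overlap between tumour and non-tumour arrays.

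Avil encodes advillin, an actin-bundling protein of the villin family that is also made by sensory neurons. Its signal was 3982 in ACKR2KO_ApcMin and 2365 in ApcMin colon tumours, against 98.2 in ACKR2KO and 139 in WT colon. In the small intestine it was 1844 in ACKR2KO_ApcMin and 2638 in ApcMin tumours, against 165 in ACKR2KO and 278 in WT tissue. Every tumour array was far above every non-tumour array. Of all genes tested, 7.25% had the same separation with tumours higher and 4.51% had it with tumours lower.

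Averaged over tissues, Avil was higher in tumours by 4.04 ± 0.22 on the log2 scale (SE, limma, adjusted p = 0.000719), in 4 of 4 pairs. It stood 13th from the top of the 14023 genes when these were ordered by this difference. That made 1 of the 5 genes called in this contrast, where 25.1% of all genes were called in either direction and 13.1% were called higher. The difference was 4.71 ± 0.32 in the colon (SE, limma, adjusted p = 0.00137), where 23.6% of all genes were called and 11.0% were called higher, and again Avil alone of the 5. In the small intestine it was 3.36 ± 0.32 (SE, limma, adjusted p = 0.00677), with 3.97% of all genes called, 2.77% called higher, and again only Avil of the 5. The tumour effect of Avil was larger in colon than in small intestine by 1.35 ± 0.45, which did not pass the test (SE, limma, adjusted p = 0.186). Of the 5 genes 0 passed it, against 2.25% of all genes. At an unadjusted p under 0.05 there was 1 of the 5, and 2663 of all 14023 genes (limma).

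Pair by pair, Avil was 40.6-fold higher in ACKR2KO_ApcMin colon tumours than in ACKR2KO colon and 17.0-fold higher in ApcMin colon tumours than in WT colon. The small-intestinal pairs gave 11.2-fold with ACKR2 loss and 9.49-fold without it. Avil thus exceeded a log2 difference of 1 in all 4 tumour pairs, as did 1.16% of all genes, and none of the other 4 genes reached 1 in any of them. In the colon 9.81% of all genes were higher by that much in the pair with ACKR2 loss and 6.74% in the pair without it, and 11.7% and 8.91% were lower. The matching shares for the small intestine were 5.96% and 6.05% higher, and 3.37% and 3.94% lower. The call rested on all 8 arrays. Without any 1 array the averaged difference stayed between 3.72 and 4.36, but its adjusted p lay between 0.0677 and 0.173, and limma then called 0 of 14023 genes, with 3089 to 5285 of them at an unadjusted p under 0.05. The call was also lost with a floor at the 60th percentile (3.63, adjusted p = 0.0607), with no filter on dim genes (adjusted p = 0.0603) and with the mean of all probe sets of each gene (adjusted p = 0.0555). Most calls of other genes were lost there too. In the same order 209 of 14023, 169 of 18193 and 276 of 18032 genes were called, against 3523 of 14023 in the main fit.

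**Figure D2:**
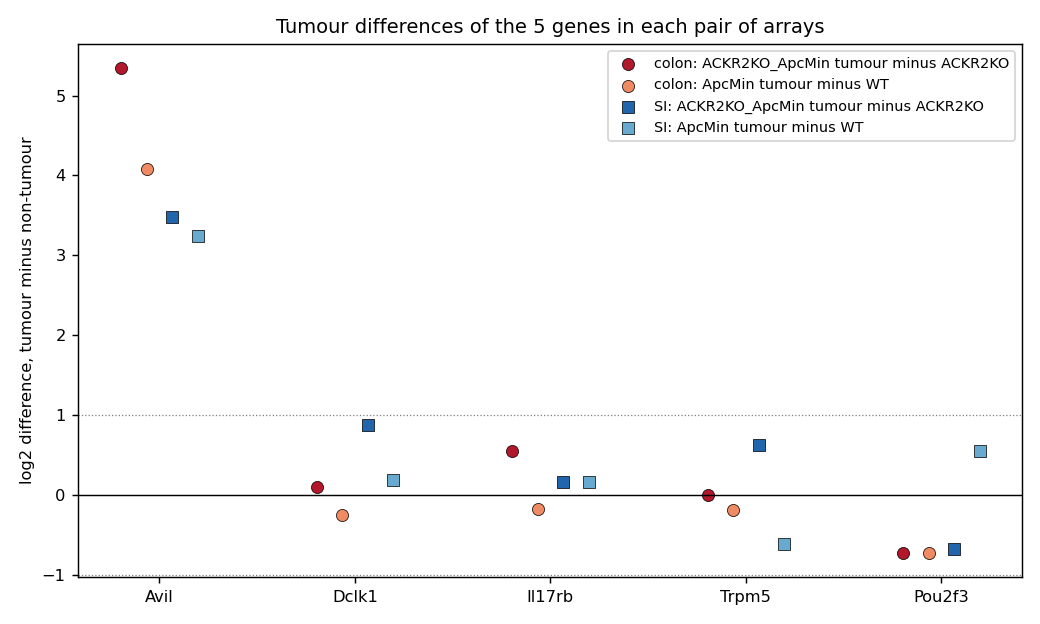
Log2 difference, tumour minus non-tumour, of each gene in the 4 pairs of arrays, with circles for colon and squares for small intestine, and dotted lines at a difference of 1 in either direction. Avil lies between 3.25 and 5.34 in all 4 pairs, and every point of the other 4 genes lies within 1 of zero.

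Since sensory neurons also make advillin, the gut's own neurons were examined with it. The summed signal of 10 enteric neuron and glia genes ranged from 564 to 1162 in the tumour arrays and from 1116 to 2580 in the non-tumour arrays, and 7 of the 10 genes were called lower in tumours with 0 higher, against 12.0% of all genes called lower. With the small intestine taken alone 0 of the 10 were called (limma, 5 lower at an unadjusted p under 0.05), and 1 of the 10 had a positive averaged difference. The part of neuronal RNA in the Avil signal was not tested. The summed signal of 11 epithelial genes was 120533 to 156992 in tumours and 124922 to 156067 in non-tumour tissue, largely overlapping. The summed signal of 10 smooth muscle genes was 8507 to 32822 in tumours and 53222 to 123396 in non-tumour tissue, with every tumour array below every non-tumour array. The part of muscle RNA in the tumour differences was not tested.

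The promoter of Avil is shown because POU2F3 belongs to the factors that bind an octamer element, and because Avil alone was called in tumours. In the RefSeq sequence for build GRCm38.p6 it lies at chr10:127000459-127000758 on the plus strand and runs from 250 bases before to 50 bases after the start of the gene. Capitals mark the octamer core ATGCAAA, read on either strand (TTTGCAT on the other).
Avil promoter: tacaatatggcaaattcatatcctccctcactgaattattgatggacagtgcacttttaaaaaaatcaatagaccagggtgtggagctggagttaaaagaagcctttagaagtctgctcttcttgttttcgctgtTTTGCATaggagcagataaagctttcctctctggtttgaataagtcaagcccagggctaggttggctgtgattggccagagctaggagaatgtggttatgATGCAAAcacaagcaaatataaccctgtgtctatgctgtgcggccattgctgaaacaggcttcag
The core occurred at -115 from the start, on the opposite strand, and at -15, on the gene's strand. Of 32851 promoters of this length, 4.63% held the core at least once and 0.292% at least 2 times. The core was added to the search after the Avil sequence had been read. The full octamer ATGCAAAT, present in 1.74% of promoters, was not in this window, and neither were the TCF/LEF letters CTTTGAT (3.73%) and CTTTGAA (5.14%), all read on both strands.

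Dclk1 encodes doublecortin-like kinase 1, a microtubule-associated kinase that is also made by neurons. The signal of its tested probe set was 129 in ACKR2KO_ApcMin and 169 in ApcMin colon tumours, against 120 in ACKR2KO and 201 in WT colon. Small-intestinal signals were 409 in ACKR2KO_ApcMin and 209 in ApcMin tumours, against 223 in ACKR2KO and 184 in WT tissue. The array of ACKR2KO_ApcMin small-intestinal tumours stood above all others, and the remaining tumour arrays lay among the non-tumour ones. The averaged tumour difference was 0.23 ± 0.30 (SE, limma, adjusted p = 0.608), with a positive sign in 3 of 4 pairs. Without both ACKR2KO_ApcMin arrays it was -0.031. With 1 array left out it ran from -0.11 to 0.57 and was positive in 4 of 8 fits, so its sign depended on which arrays were kept.

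The other Dclk1 probe sets all had lower means, because the tested one was chosen for the highest. Their means over the arrays ranged from 12.5 to 135, against 205 for the tested one, and 2 of the 9 were below the floor on every array. When all probe sets were fitted separately over 25776 probe sets, the 7 Dclk1 probe sets above the filter had averaged tumour differences between -0.17 and 0.46, and 0 of the 7 passed the test, against 21.8% of all probe sets. Their sign was positive for 6 of the 7. The ACKR2KO_ApcMin small-intestinal tumours were the highest array for 6 of the 9 probe sets, and the second brightest read 258 there against 176 in ApcMin small-intestinal tumours.

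**Figure D3:**
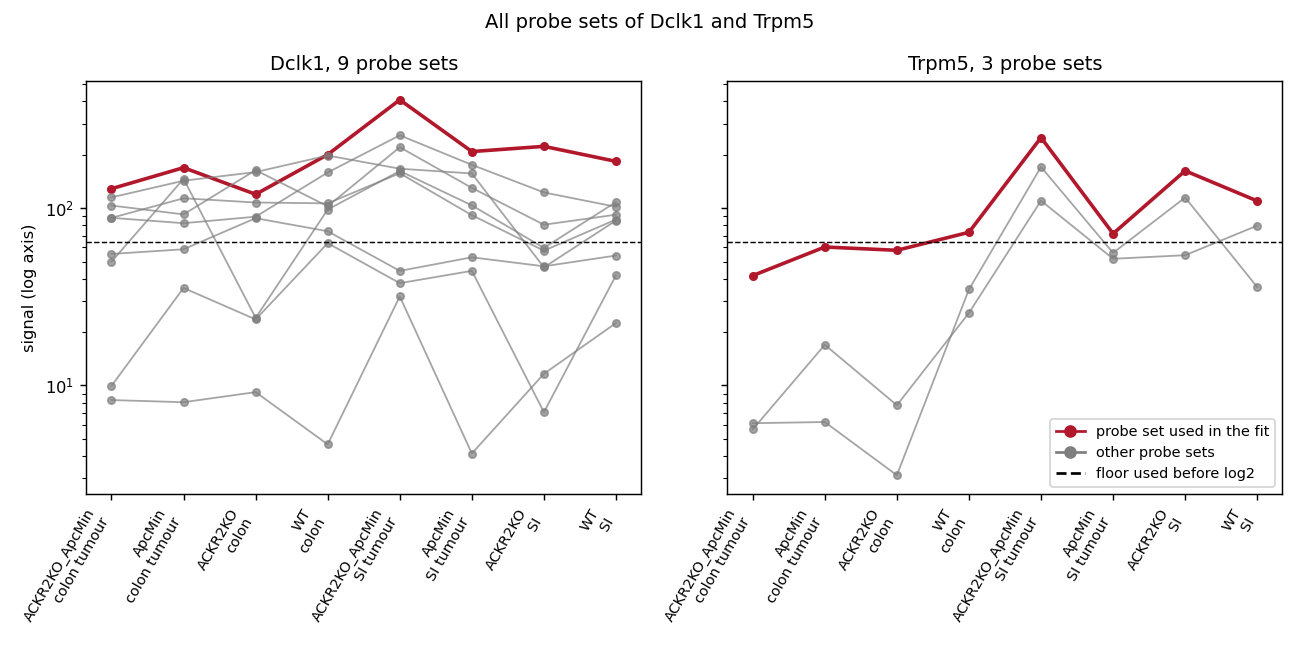
Signal (log axis) of all 9 probe sets of Dclk1 (left) and all 3 of Trpm5 (right) on the 8 arrays, with the tested probe set in red, the others in grey and the floor of 64.1 dashed. In ACKR2KO_ApcMin small-intestinal tumours 6 of the 9 Dclk1 probe sets and 3 of the 3 Trpm5 probe sets reach their highest value.

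Trpm5 encodes the calcium-activated cation channel at the end of the taste-like cascade. In the colon its signal was 41.6 in ACKR2KO_ApcMin and 60.4 in ApcMin tumours, against 57.8 in ACKR2KO and 73.1 in WT tissue. In the small intestine it was 250 in ACKR2KO_ApcMin and 71.8 in ApcMin tumours, against 162 in ACKR2KO and 110 in WT tissue. The gene was at or close to the floor throughout the colon, and only the small intestine gave values well above it. The averaged tumour difference was -0.045 ± 0.31 (SE, limma, adjusted p = 0.929), with opposite signs in the small-intestinal pairs, 0.62 with ACKR2 loss and -0.61 without it. Its 2 dimmer probe sets, with means of 53.5 and 44.0, read 171 and 110 in the ACKR2KO_ApcMin small-intestinal tumours, where both were also highest.

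The promoter of Trpm5 is shown beside that of Avil as that of the gene with the largest difference between the small-intestinal tumour pools. It lies at chr7:143094593-143094892 on the minus strand of GRCm38.p6 (RefSeq) and is given in the direction of the gene. It has no capitals because none of the 4 motifs was found in this window.
Trpm5 promoter: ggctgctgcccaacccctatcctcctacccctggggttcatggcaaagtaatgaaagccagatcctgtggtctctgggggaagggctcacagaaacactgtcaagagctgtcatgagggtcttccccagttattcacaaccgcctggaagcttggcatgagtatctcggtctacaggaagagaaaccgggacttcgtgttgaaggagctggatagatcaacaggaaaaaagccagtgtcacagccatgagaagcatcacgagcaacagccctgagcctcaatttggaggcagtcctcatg
Its GC content was 53.0%, against 43.0% for Avil and a median of 52.7% over all promoters. RefSeq promoters were matched for 4 of the 5 genes, Dclk1 with 2, and the only other match was CTTTGAT at -153 in the upstream Dclk1 promoter.

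Il17rb encodes the receptor chain that binds IL-25. Its signal was 170 in ACKR2KO_ApcMin and 104 in ApcMin colon tumours, against 116 in ACKR2KO and 118 in WT colon. Its small-intestinal signals were 274 in ACKR2KO_ApcMin and 171 in ApcMin tumours, against 245 in ACKR2KO and 153 in WT tissue. All 8 values were above the floor and within a narrow range, and in both tissues the ACKR2KO_ApcMin tumour array was the highest. The averaged tumour difference was 0.17 ± 0.19 (SE, limma, adjusted p = 0.543). Il25, the ligand, read 1.89 to 32.7 over the 8 arrays, below the floor on each.

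Pou2f3 encodes the transcription factor on which tuft cells depend. Its signal was 42.8 in ACKR2KO_ApcMin and 47.5 in ApcMin colon tumours, against 106 in both ACKR2KO and WT colon. Small-intestinal tissue gave 66.3 in ACKR2KO_ApcMin and 146 in ApcMin tumours, against 106 in ACKR2KO and 99.8 in WT tissue. The non-tumour arrays were nearly equal, both colon tumour arrays were below the floor, and ApcMin small-intestinal tumours were the only tumour array above the non-tumour range. With floored values the colon pairs differed by -0.72 each, which are lower limits in size, and the small-intestinal pairs by -0.68 with ACKR2 loss and 0.55 without it. The averaged tumour difference of -0.39 ± 0.21 did not pass the test (SE, limma, adjusted p = 0.213). Its arrays thus followed neither those of Avil nor those of Trpm5.

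The question of the ACKR2 genotype was addressed by setting ACKR2KO_ApcMin against ApcMin tumours. None of the 5 genes was called in this contrast (limma), where 0.0357% of all genes were called, 5 of 14023, with 2188 at an unadjusted p under 0.05. Stromal marker genes had negative differences in the same contrast, 10 of 10 smooth muscle genes (median -1.90, 1 called) and 7 of 7 fibroblast genes (median -1.20, 0 called), all at an unadjusted p under 0.05. The part of stromal RNA in the values below was not tested. Il17rb was the gene with the smallest error, at 0.70 ± 0.27 (SE, limma, adjusted p = 0.296, unadjusted p = 0.0413), and it was higher with ACKR2 loss in both tissues, by 0.71 in colon and 0.68 in small intestine. Trpm5 had 0.90 ± 0.44 (SE, limma, adjusted p = 0.381), which came from the small-intestinal pair alone, because both colon tumour arrays were at the floor. Pou2f3 had -0.57 ± 0.29 (SE, limma, adjusted p = 0.403), which likewise came from the small intestine alone. Dclk1 had 0.29 ± 0.42 (SE, limma, adjusted p = 0.782), with -0.39 in colon and 0.97 in small intestine. Avil had 0.12 ± 0.32 (SE, limma, adjusted p = 0.902), also with opposite signs, 0.75 in colon and -0.52 in small intestine.

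In the small-intestinal pair taken alone, which has no test, Trpm5 was 3.48-fold higher in ACKR2KO_ApcMin than in ApcMin tumours, and 1.94% of all genes were higher by at least 1 on the log2 scale. Dclk1 was higher by 0.97 on that scale, just under that threshold. Pou2f3 differed by -1.14, and 4.62% of all genes were lower by at least 1. In the colon pair 0 of the 5 genes reached 1 in either direction, against 1.96% of all genes higher and 4.91% lower. In non-tumour tissue, ACKR2KO against WT, 0 of the 5 genes were called (limma, 0 at an unadjusted p under 0.05), against 0.685% of all genes, and 0 reached a difference of 1 in either pair, against 2.01% higher and 5.11% lower in colon and 1.57% higher and 6.90% lower in small intestine. The largest of these differences were -0.75 for Avil in the small intestine and -0.75 for Dclk1 in the colon.

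The array of ACKR2KO_ApcMin small-intestinal tumours was the highest of the 8 for 3 of the 5 genes, and for 8.26% of all genes. To see how far other tuft cell genes shared this, 71 further genes in 5 lists were examined, of which 59 had a probe set of their own and 48 were tested. That array was the highest for 17 of the 48, among them 11 of the 24 structural and signalling markers, 3 of the 6 eicosanoid genes and 0 of the 6 type 2 cytokine circuit genes. It was also the highest for 5 of 6 B cell genes and 5 of 7 mast cell genes. The summed B cell signal was 11154 in this array and 7059 in ApcMin small-intestinal tumours, and the summed mast cell signal was 26833 and 14006 in the same order. In ACKR2KO_ApcMin against ApcMin small-intestinal tumours, 4.62% of all genes were lower by at least 1 on the log2 scale. Smooth muscle genes were lower by that much for 10 of 10, with a median of -1.29, and fibroblast genes for 6 of 7, with a median of -1.91. The part of these cell types in the tuft gene values was not tested.

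In that pair, 9 of the 48 genes were higher by at least 1 on the log2 scale, against 1.94% of all genes, and 1, Runx1, was lower, against 4.62%. In the colon pair 1, Nebl, was higher, against 1.96% of all genes, and 2, Espn and Atp2a3, were lower, against 4.91%. These genes were named here by this difference and so chosen after their values were seen. Rgs13, a regulator of G-protein signalling that is also made by germinal centre B cells and mast cells, read 1392 in ACKR2KO_ApcMin and 256 in ApcMin small-intestinal tumours, a difference of 2.44. Sucnr1, the succinate receptor of tuft cells, read 305 and 32.5 in the same order, a difference of at least 2.25. Siglecf, a lectin of tuft cells and eosinophils, read 336 and 70.9, a difference of 2.24. The others were Strip2 (at least 1.94), Bmx (at least 1.64), Alox5ap (1.48), Matk (1.15), Sh2d6 (1.09) and 1810046K07Rik (1.02). For the ACKR2 effect in tumours, which asks for the same change in both tissues, 0 of the 48 genes were called (limma), with 4 at an unadjusted p under 0.05, 1 of them higher and 3 lower. Of all 14023 genes, 2188 were at that level.

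**Figure D4:**
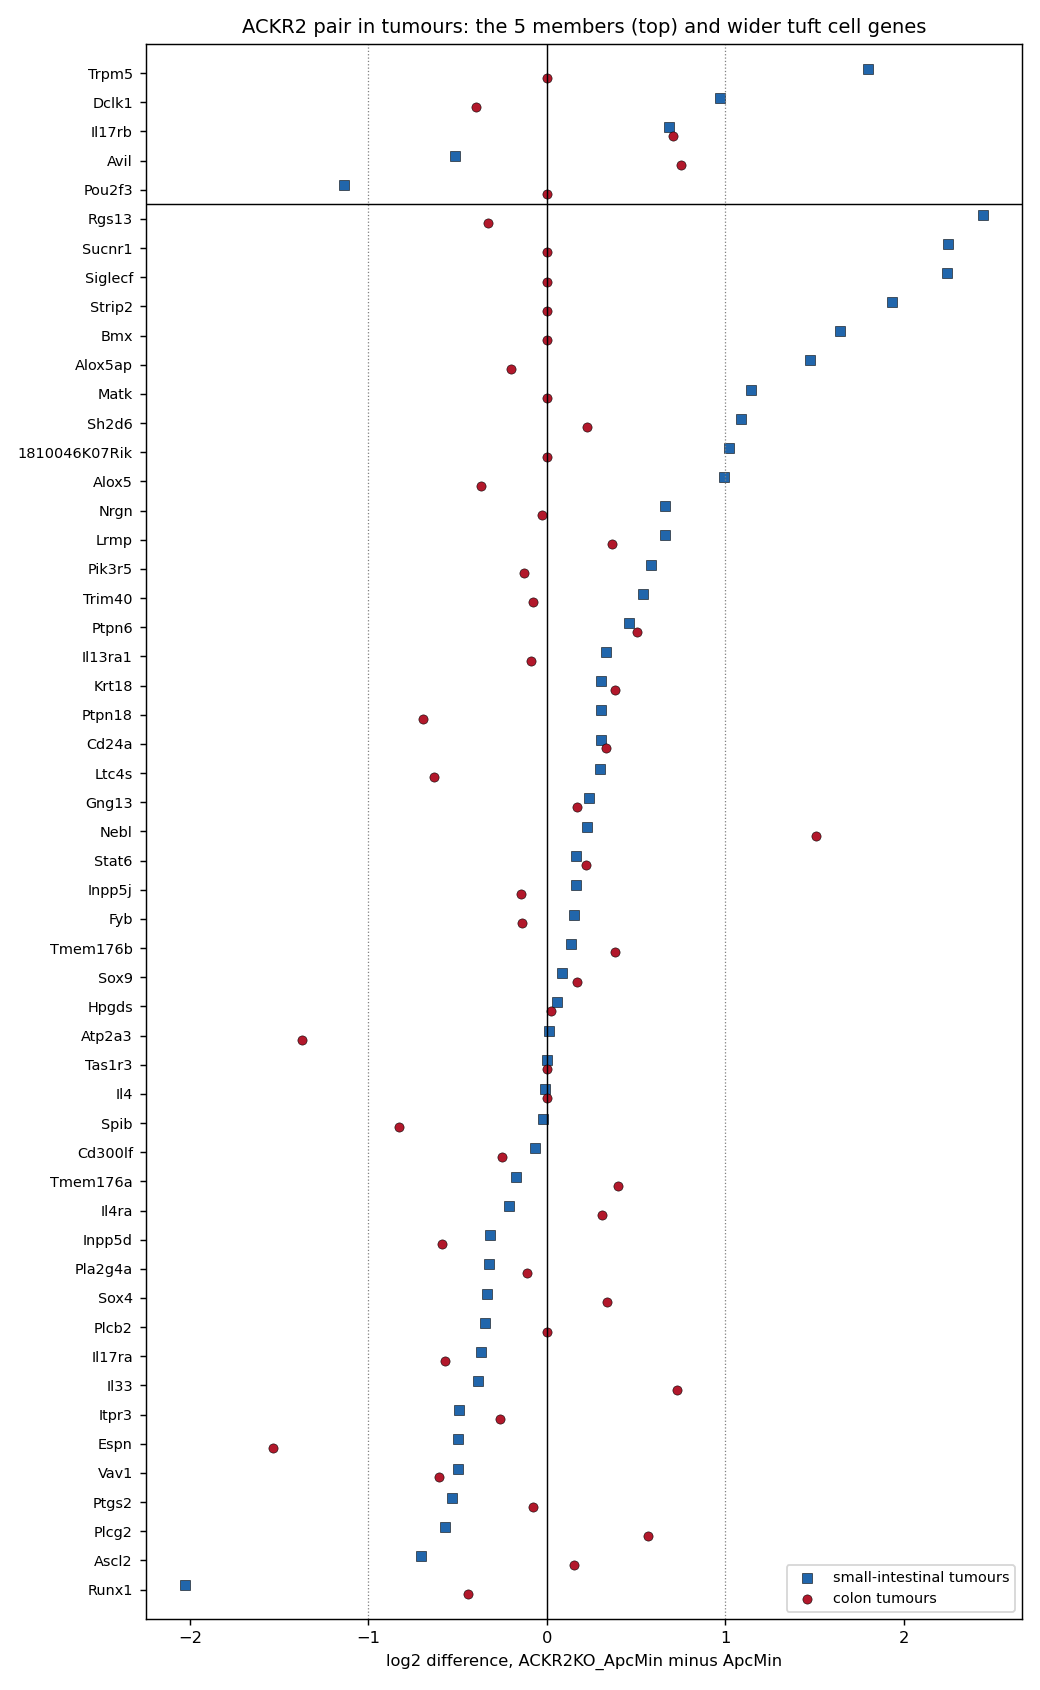
Log2 difference, ACKR2KO_ApcMin minus ApcMin tumours, of the 5 genes (above the line) and of the 48 wider tuft cell genes (below it), with blue squares for small-intestinal tumours, red circles for colon tumours and dotted lines at 1 in either direction. Trpm5 at 1.80 and 9 wider genes lie above 1 in the small intestine, and none of the colon points of these genes does, several because both arrays were at the floor.

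The wider genes were also followed in the tumour comparison. Averaged over tissues, 17 of the 48 were called higher in tumours, against 13.1% of all genes, and 1 lower, against 12.0%, with a median difference of 0.24, against 0.033 over all genes. Of the 6 taste-type signalling genes measured beside Trpm5, 0 were called (limma, 1 at an unadjusted p under 0.05), and the largest difference was 0.67 for Plcg2, a phospholipase also made by immune cells (adjusted p = 0.0915). Of 6 transcription factors and coactivators 5 were called higher: Sox4 by 2.12, Sox9 by 1.32, Runx1 by 1.13, Ascl2 by 1.12 and Spib by 0.78. Spib had opposite directions in the tissues: it read 62.5 in ACKR2KO_ApcMin and 114 in ApcMin colon tumours, against 96.4 in ACKR2KO and 246 in WT colon. Small-intestinal Spib signals were 1217 in ACKR2KO_ApcMin and 1237 in ApcMin tumours, against 173 in ACKR2KO and 309 in WT tissue. These 5 are not specific to tuft cells, since Sox4, Sox9 and Ascl2 also mark stem and progenitor cells and Runx1 and Spib are also made by immune cells. In the small intestine alone 5 of the 48 were called higher and 0 lower, against 2.77% and 1.20% of all genes. In the colon alone 14 were called higher and 4 lower, against 11.0% and 12.6%.

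Of the 6 eicosanoid genes, Alox5ap (1.01), which activates 5-lipoxygenase, and Ptgs2 (0.88), an inducible cyclooxygenase, were called higher in tumours, as were 13.1% of all genes. Of the 6 genes of the type 2 cytokine circuit, the alarmin Il33 (1.33) and the IL-4 receptor chain Il4ra (0.95) were called higher. Il4ra was not higher in every pair, with 595 in ApcMin small-intestinal tumours against 628 in WT small intestine. Among the 24 other markers, 8 were called higher and 1 lower, against 13.1% and 12.0% of all genes. Nebl, an actin-binding protein of the nebulin family, was higher by 2.68. It read 2375 in ACKR2KO_ApcMin and 834 in ApcMin colon tumours, against 63.3 in ACKR2KO and 79.0 in WT colon. Small-intestinal Nebl signals were 349 in ACKR2KO_ApcMin and 299 in ApcMin tumours, against 243 in ACKR2KO and 101 in WT tissue. Cd300lf, a receptor that binds lipids, was higher by 1.28, the phosphatase Inpp5d by 1.10 and the phosphatase Ptpn6 by 0.89. The keratin Krt18, which is also among the 11 epithelial genes, was higher by 0.85. Espn, which encodes espin, another actin-bundling protein, fell by 1.36 in tumours, the reverse of Avil. Cd300lf, Inpp5d and Ptpn6 are also made by immune cells. Averaged over tissues, mast cell genes were called higher in tumours for 6 of 7 and B cell genes for 5 of 6, against 13.1% of all genes. The B cell calls came from the small intestine, with 5 of 6 called higher there, against 2.77% of all genes. In the colon 0 of 6 were called higher (limma, 0 at an unadjusted p under 0.05), against 11.0% of all genes, and 1 lower, against 12.6%. The tissue difference in the tumour effect, called for 2.25% of all genes, was called for 5 of the 6. Their part in these calls was not tested.

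Relatives of the 5 genes were examined in the same contrast. Of 10 paralogs tested, 0 were called higher in tumours (limma, 1 at an unadjusted p under 0.05) and 2 lower, where 12.0% of all genes were called lower. Scin, which encodes the actin-severing scinderin of the same family as advillin, differed by -1.25 (limma, adjusted p = 0.0197). Il17rc, a receptor chain related to Il17rb, differed by -0.88 (limma, adjusted p = 0.0202). Dclk3 differed by -0.71 (limma, adjusted p = 0.112) and Il17re by -0.53 (adjusted p = 0.0878). Il17rd went the other way, by 0.44 (limma, adjusted p = 0.234). Vil1, which encodes villin and is named beside the larger differences, differed by -0.34 (limma, adjusted p = 0.164). Trpm4, the closest relative of Trpm5, differed by -0.43 (limma, adjusted p = 0.0649).

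Between the tissues, 4 of the 5 genes had negative colon minus small intestine differences in tumours, and 4 of the 5 had them outside tumours, counting only the sign of the tested probe set. None of the 5 tested probe sets was called in non-tumour tissue, against 21.4% of all genes, and none in tumours, against 13.1% (limma). At an unadjusted p under 0.05 there were 2 of the 5 outside tumours, Avil and Il17rb, and 2 in tumours, Trpm5 and Il17rb. Of all 14023 genes, 5025 were at that level outside tumours and 4253 in tumours (limma). Outside tumours Trpm5 had -0.96 ± 0.44 (SE, limma, adjusted p = 0.171), Avil -0.87 ± 0.32 (adjusted p = 0.105) and Il17rb -0.73 ± 0.27 (adjusted p = 0.110). In tumours Trpm5 had -1.06 ± 0.44 (SE, limma, adjusted p = 0.164), Dclk1 -0.98 ± 0.42 (adjusted p = 0.177) and Il17rb -0.71 ± 0.27 (adjusted p = 0.144). The Trpm5 and Dclk1 values in tumours rested on the ACKR2KO_ApcMin pair of arrays: without either array of that pair Trpm5 had -0.16 and Dclk1 -0.30, and without either ApcMin tumour array they had -1.96 and -1.67. Outside tumours Il17rb had -1.08 in ACKR2KO and -0.38 in WT mice, and Trpm5 -1.34 without either WT array and -0.59 without either ACKR2KO array.

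The Dclk1 probe sets did not share 1 direction between the tissues outside tumours. Its tested probe set had -0.39 in colon minus small intestine, but 5 of the 7 probe sets above the filter had positive differences. One of them, the third brightest, was called higher in colon in the fit of all probe sets, by 1.27 ± 0.24 (SE, limma, adjusted p = 0.0172), where 17.1% of all probe sets were called in either direction. It read 160 in ACKR2KO and 198 in WT colon, against 46.3 in ACKR2KO and 85.2 in WT small intestine. In tumours 0 of the 7 had a positive difference and 6 a negative one, and 0 were called.

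Single pairs of arrays, which have no test, gave the tissue differences by genotype. In ACKR2KO_ApcMin tumours, Dclk1 was 3.17-fold lower in colon than in small intestine and Trpm5 at least 3.90-fold lower, whereas Avil was 2.16-fold higher. In these tumours 10.5% of all genes were higher in colon by at least 1 on the log2 scale and 9.57% lower. In ApcMin tumours only Pou2f3 reached 1, at least 2.28-fold lower in colon, where 6.30% of all genes were lower by at least 1 and 4.18% higher. In ACKR2KO non-tumour tissue Trpm5 was at least 2.53-fold lower and Il17rb 2.11-fold lower in colon, where 7.41% of all genes were lower by at least 1 and 12.9% higher. In WT tissue 0 of the 5 genes reached 1, and Avil came nearest, with 139 in colon and 278 in small intestine. There 9.64% of all genes were higher in colon by at least 1 and 6.57% lower. In all, 12 of the 60 differences of these genes within pairs of arrays reached 1, 4 of them those of Avil between tumour and non-tumour tissue.

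Across the 8 arrays, Trpm5 correlated with Dclk1 (Pearson r = 0.85) and with Il17rb (r = 0.85), and Dclk1 with Il17rb (r = 0.69). These correlations describe 8 arrays that share the scaling and a single array in which the 3 genes were highest. The r of Avil with each of these 3 lay between -0.057 and 0.20, and that with Pou2f3 was -0.48. The 3 genes most like Avil were Fgfrl1 (r = 0.996), a relative of the fibroblast growth factor receptors, Notum (0.990), a secreted Wnt inhibitor, and Dennd1c (0.987). Notum read 3839 in ACKR2KO_ApcMin and 1901 in ApcMin colon tumours, against 59.4 in ACKR2KO and 38.9 in WT colon. The small-intestinal signals of Notum were 2105 in ACKR2KO_ApcMin and 2979 in ApcMin tumours, against 74.9 in ACKR2KO and 98.2 in WT tissue. As for Avil, ACKR2KO_ApcMin colon tumours were highest, followed by ApcMin small-intestinal tumours. Notum was picked by its r with Avil on these same arrays, so this likeness is no separate result.

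The genes most like Trpm5 were Sox3 (r = 0.989), Sucnr1 (0.988) and Ptgdr (0.987), a prostaglandin D2 receptor. Sucnr1 read 305 in ACKR2KO_ApcMin and 32.5 in ApcMin small-intestinal tumours, against 195 in ACKR2KO and 94.7 in WT small intestine, and no more than 20.1 on any colon array. The 4 small-intestinal arrays had the same order for Sucnr1 as for Trpm5. Sucnr1 was picked by its r with Trpm5 on these same arrays, so the shared order is no separate result. The r used floored values, and Sucnr1 was below the floor on every colon array and in ApcMin small-intestinal tumours. The genes most like Dclk1 were Alox5 (r = 0.964), the 5-lipoxygenase, 4930417H01Rik (0.957) and Trim2 (0.937). Those most like Il17rb were Ubd (0.967), Csnk1g3 (0.961) and Zfp35 (0.959), and those most like Pou2f3 were Egln2 (0.917), Gpc3 (0.911) and Nrtn (0.890). Among the 15 nearest genes, Alox5 and Sucnr1 were the only ones on the wider tuft lists.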

How the data were processed

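The deposited table held intensity values, 1 column per array. MAS5 and Partek are named for them, per the submitters' processing notes, without versions. The deposited intensity values are linear, and their trimmed means averaged 500 over the arrays when 2% were dropped from either end. RNA was pooled per genotype and tissue, per the series' design text, and the number of animals per pool is not given in the sources used here. No scanner files were used.

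Of 45101 probe sets, 64 were controls, 34945 had 1 gene, 932 had several and 9160 had none. Genes were named from the platform annotation, and 34741 of these probe sets were matched to RefSeq by gene identifier. The 18193 genes were each represented by the probe set with the highest mean. Values below the median over arrays of the 40th percentile (64.1, log2 6.00) were set to it. A gene entered the tests if it exceeded this floor in at least 2 arrays, as 14023 did.

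One limma model (limma 3.58.1, R 4.3.3) with the eBayes trend had 4 intercepts, for each tissue with and without tumour, plus an ACKR2 effect for tumours and another for non-tumour tissue, each common to colon and small intestine. It left 2 residual degrees of freedom, to which 4.16 prior ones were added, and its median standard deviation was 0.22. Tests were two-sided. Pairs of arrays differing in 1 factor were described without a test, with a difference of 1 on the log2 scale as threshold. The model code was run on simulated data with independent noise, in which only tumour differences had been added. That run does not bear on the spread among animals or on the disagreement between the tissues. Genes on the lists were named in order of the size of the averaged tumour difference, up to 6 per list, with the 3 genes most like each of the 5 by Pearson r over the 8 arrays. Vil1 was named in addition among the paralogs. The 5 genes, the lists and the alternatives were chosen with earlier results of these data known. Promoters came from RefSeq (GRCm38.p6).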

Additional observations from a re-analysis of the deposited data

Results flagged for a closer look

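Dclk1 had opposite differences with ACKR2 loss in the colon and the small intestine. In the colon, ACKR2KO_ApcMin minus ApcMin tumours gave -0.39 on the log2 scale and ACKR2KO minus WT tissue gave -0.75, a mean of -0.57. In the small intestine the same pairs gave 0.97 and 0.28, a mean of 0.63. The colon mean minus the small-intestinal mean was -1.20. Both colon pairs were negative and both small-intestinal pairs positive for the tested probe set. This held for 1 of the 7 Dclk1 probe sets above the filter, the tested one, and not for the other 6. The fourth brightest probe set, for example, gave 0.17 and 0.68 in the colon pairs and 0.76 and -0.19 in the small-intestinal pairs. This difference between the tissues was not tested, and each pair holds 1 array per genotype.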

How the results depend on the processing

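All results were recomputed under 22 alternatives, of which 8 left out an array. Avil kept its direction in the averaged tumour difference in all 22, between 3.63 and 4.41, and kept its call in 9 of the 14 others. The number of the 5 genes called was 0 for the averaged, colon and small-intestinal tumour effects with a floor at the 60th percentile, with no filter, with the mean of all probe sets, without both WT arrays (Avil 4.41, adjusted p = 0.182), without both ACKR2KO_ApcMin arrays (Avil 3.67, adjusted p = 0.121), and without any 1 array (0 to 0). For the averaged tumour effect, calls among all genes fell to 209 of 14023 with the 60th-percentile floor and 169 of 18193 with no filter. With the mean of all probe sets they fell to 276 of 18032, against 3523 of 14023 in the main fit. Leaving out arrays leaves fewer residual degrees of freedom. Pair differences of at least 1 numbered 6 with the 60th-percentile floor and 7 with a filter on all 8 arrays, against 12. The latter filter removed Trpm5 and Pou2f3, which exceeded the floor in 5 and 6 arrays, and left the differences of the other genes unchanged.

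No called difference of the 5 genes turned its sign. Of 854 combinations of these genes with contrast and setting, 84 had the opposite sign, 0 of them called. Trpm5, averaged tumour effect, became 0.096 with the 60th-percentile floor, 0.014 with arrays centred on epithelial genes, 0.072 with the mean of all probe sets, 0.31 without both WT arrays, and ran from -0.49 to 0.41 with 1 array left out. Without both ACKR2KO_ApcMin arrays, the averaged tumour effect of Dclk1 was -0.031 and of Il17rb -0.0093. That of the B cell gene Cd79a, called higher with all arrays (0.98), turned to -0.048 without these arrays. With 1 array left out, the averaged tumour effect ran from -0.11 to 0.57 for Dclk1 and from -0.0018 to 0.35 for Il17rb, and the ACKR2 effect in tumours from -0.39 to 0.97 for Dclk1. The ACKR2 effect of Avil in tumours was -0.26 with 1 ACKR2 effect for all arrays and from -0.52 to 0.75 with 1 array left out. The cause of these changes was not tested. Centring on epithelial genes moved the median of all genes from 0.033 to 0.14 in the averaged tumour effect. In non-tumour colon against small intestine it moved this median from 0.11 to 0.35. The median signal was 85.5 to 103 in arrays with ACKR2 loss and 115 to 133 in the others. Centring each array on its median moved the median of all genes from -0.023 to 0.43 for the ACKR2 effect in non-tumour tissue. Genes called there rose from 96 of 14023 to 3815 of 14036, so this share depended on the scaling. For the ACKR2 effect in tumours the median moved from -0.033 to 0.20.

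No paired analysis was possible because each group had 1 array, so no replicate numbers pair samples. The model already compares colon with small intestine within each genotype, since its ACKR2 effects are common to both tissues. Trpm5 and Pou2f3 lie near the floor, which limits the size of difference that can be measured for them.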
